A study of Mus musculus with 12 samples.

Results

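The 43 integrin and laminin genes described here were taken by name alone: every row of the deposited gene table whose name begins with Itga or Itgb, or is Lama, Lamb or Lamc followed by a number, out of 23358 rows. They comprise 18 integrin α subunits, 9 β subunits, 11 laminin chains and 5 rows that share the prefix but encode no subunit. Of the 43, 30 had 1 CPM or more (counts scaled to library size) in 2 or more libraries and could be tested, among 12056 such genes.

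RNA came from MC3T3 sc4 cells, a clonal mouse (C57BL/6) calvarial pre-osteoblast line, at passage 12, so a single line stands for the osteoblast lineage. All cells were in osteogenic medium, which supplies ascorbic acid and β-glycerol phosphate, for 6 days or for 1 day. In both time groups the cells received 5 µM GSK126, an inhibitor of the histone H3 lysine methyltransferase EZH2, or none, and each of these was combined with 0, 10 or 50 ng/ml of bone morphogenetic protein 2 (BMP2). This gives 12 conditions with 1 library each: on both days GSK126 alone, GSK126 with 10 or 50 ng/ml BMP2, BMP2 alone at 10 or 50 ng/ml, and vehicle.

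Integrins are cell surface receptors made of 1 α and 1 β subunit; they bind matrix proteins outside the cell and couple, through talin and kindlin, to actin inside it. The α subunit largely sets the ligand: some bind collagens, some laminins, and others an Arg-Gly-Asp (RGD) motif found in fibronectin, vitronectin, osteopontin and bone sialoprotein. Laminins are trimers of an α, a β and a γ chain and are core proteins of basement membranes; osteoblasts in bone sit mainly on collagen type I, which collagen-binding integrins recognise.

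Libraries held 74301112 to 113744802 counts. With 1 library per condition no single condition has a replicate, and libraries that share a treatment stood in for replicates in 1 fit across the table; differences are log2 fold changes ± standard error. Adjusted p-values come from the quasi-likelihood test of edgeR, with Benjamini-Hochberg adjustment over the 12056 genes, and a gene is called below 0.05. No label says whether separate cultures were used, so the p-values reflect the spread between these 12 libraries, which may be technical. The fit adds the effects of GSK126 and of each BMP2 dose within a day. Its spread is the departure of the libraries from that sum, so a true interaction of the agents would count in it. All 6 osteoblast markers examined were measured. The leukocyte markers Ptprc, Adgre1, Spi1 and Cd3e had 0 to 7 read pairs in any library, the endothelial Pecam1, Cdh5, Kdr and Tek 0 to 11, the platelet Pf4 and Gp9 0 to 6, the epithelial Epcam, Krt5, Krt8 and Krt18 0 to 3, the muscle Myod1 and Ckm 0 to 6, and the Schwann Sox10 0 to 4. Among day 6 libraries the rRNA precursor Rn45s made up 13.1% to 21.7% of each library, and among day 1 libraries 8.96% to 11.71%. On day 6 it was 14.47%, 13.49% and 13.1% with GSK126 and 15.4%, 17.16% and 21.66% without it, at 0, 10 and 50 ng/ml BMP2. Its part in the results was not tested. In each set of 3 values below, the order is 0, 10 and 50 ng/ml BMP2, and CPM are scaled by TMM.

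Levels differed widely among members. Levels of different genes were compared only as the authors' RPKM, which divide by gene length. By the median over the 12 libraries, Itgb1, the β subunit shared by collagen, laminin and fibronectin receptors, was first with 192 RPKM (138 to 261). Itgb5, a partner of the αv subunit, followed with 81.6 RPKM (49.4 to 108). Itga11 had 43.3 RPKM and Itgav 40.0 RPKM, with ranges of 18.8 to 58.7 and 20.2 to 60.8 that overlapped, so their order is not separated by the spread. Lamb1, Lama4, Lamb2, Lamc1 and Itga5 came next, with medians from 31.3 to 26.01 RPKM and overlapping ranges. A single α chain and a single γ chain dominated the laminins: Lama4 supplied 97.9% to 99.7% of the summed RPKM of the 5 laminin α chains, and Lamc1 supplied 97.6% to 99.3% of that of the 3 γ chains. No single β chain did so, since Lamb1 ranged from 20.5% to 69.3% and Lamb2 from 30.4% to 78.1% of the β chains.

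**Figure D1:**
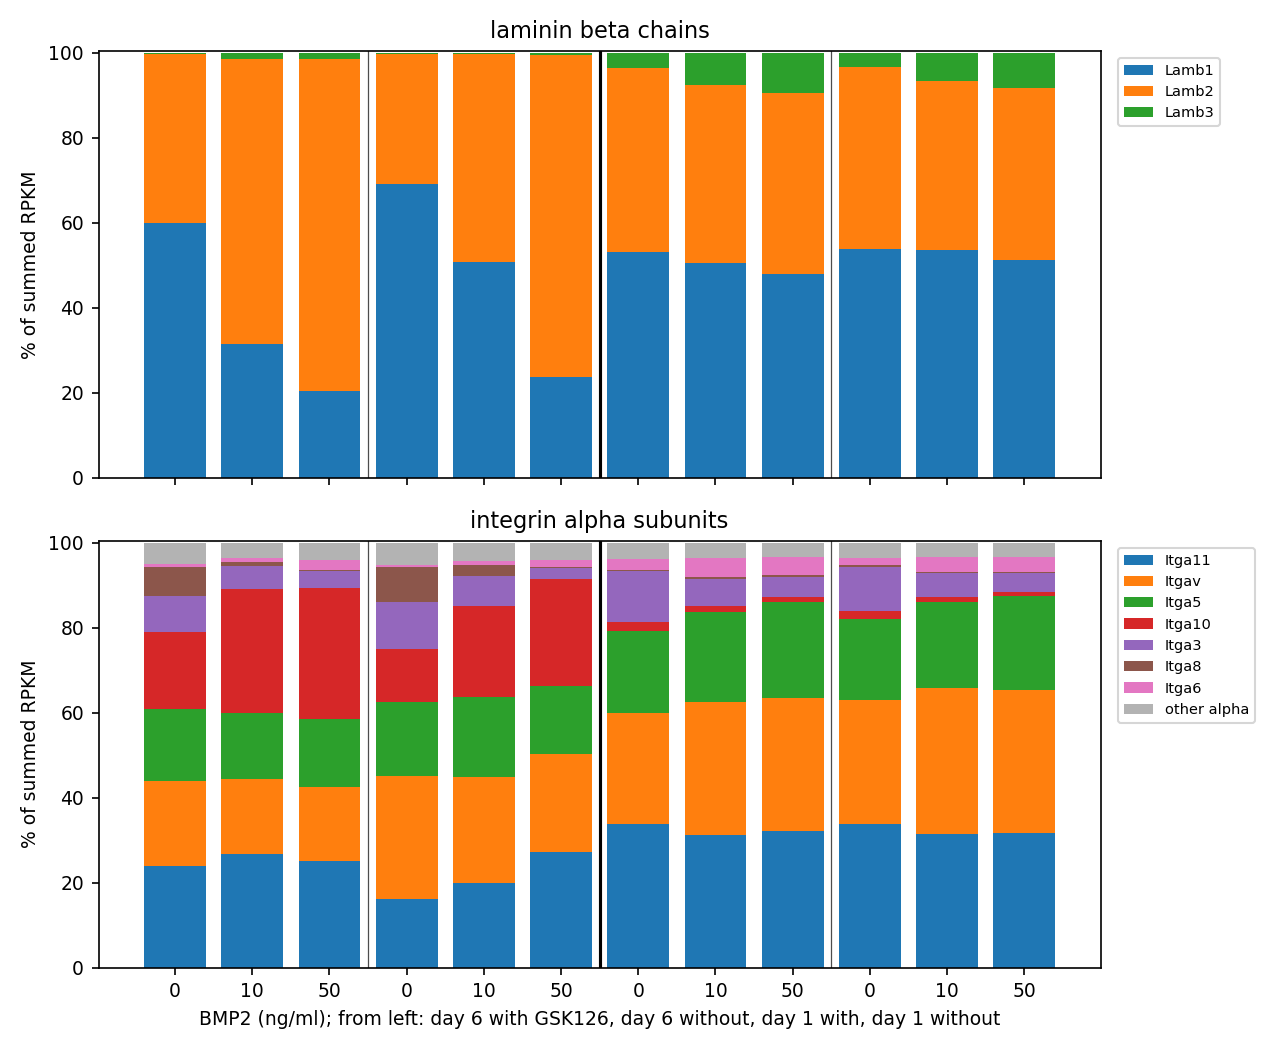
Share (%) of the summed RPKM of laminin β chains (upper bars) and of integrin α subunits (lower bars) in each of the 12 libraries, with BMP2 dose on the horizontal axis. Lamb2 makes up 39.6%, 67.0% and 78.1% of the β chains at 0, 10 and 50 ng/ml BMP2 in the day 6 libraries with GSK126, and Itga10 ranges from 0.978% to 30.8% of the α subunits.

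The other 13 members fell below the filter and were not tested. The leukocyte α subunits Itgad, Itgam and Itgax had 0 to 7 read pairs in any library. Itgae had 7 to 18 read pairs in the day 6 libraries and 18 to 40 in those of day 1. Itgal had 24 to 65 and 6 to 33. Rows of other genes overlap those of Itgae (Gsg2, 2811 bases), Itgad (4931431B13Rik, 11279, and Cox6a2, 69) and Itgb1bp3 (2310050B05Rik, 3868). Itgb2, the β partner of Itgad, Itgal, Itgam and Itgax, had 21 to 36 read pairs with GSK126 and 1 to 11 without it on day 6. On day 1 Itgb2 had 1 to 5. Itgb2l had 0 to 1 throughout, and Itgb6, a β subunit of epithelia, 2 to 23 on day 6 and 17 to 55 on day 1. Lama2, the α2 chain of muscle and nerve basement membranes, had 45 read pairs in the GSK126 library and 80 in the vehicle library of day 6, and 1 to 13 in the other 10. Lama3 had 0 to 10 on day 6 and 8 to 15 on day 1, and Lamc3 0 to 5 and 3 to 8. The remaining 2 encode no subunit: Itgb1bp2, or melusin, had 12 to 24 read pairs on day 6 and 22 to 45 on day 1, and Itgb1bp3, a nicotinamide riboside kinase, 7 to 18 and 12 to 18. A floor of 3 read pairs, the largest true count that a count of 0 allows, came to 0.0486 to 0.0923 CPM; it covers counting error only.

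Day 6 was compared with day 1 over the 6 treatments, BMP2 (the mean of both doses) with none on each day, GSK126 with none over the 3 doses on each day, and each agent's effect on day 6 with its effect on day 1. Among the tested members, Itga10 had the largest rise of any subunit gene on day 6, and it was also higher with BMP2 and with GSK126 on that day. BMP2 on day 6 was accompanied by lower Lamb1 and higher Lamb2, by lower Itga8 and Itga3, and by higher Itga6. By day 25 of 30 members were called, 11 higher and 14 lower, beside a background of 78% of all tested genes (40.5% higher and 37.5% lower). When scaled by library size alone, 7 were higher and 18 lower, where 3071 of all 12056 genes were higher and 6235 lower. The members' median difference was -0.16 on the log2 scale, against 0.03 over all genes.

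BMP2 on day 6 called 12 of the 30 members, 4 higher and 8 lower, against 28.7% of all tested genes (13.3% higher, 15.5% lower). The members' median was -0.11, against -0.00 over all genes. Under scaling by library size alone, 3 members were higher and 11 lower, beside 807 and 3412 of all genes. On day 1 BMP2 called 3 members, 1 higher and 2 lower, where 3.66% of all genes were called (1.8% higher, 1.86% lower). The effect of BMP2 differed between the days for 5 members, beside 9.14% of all genes. Of these members, 2 had a higher effect on day 6 (background 3.82%) and 3 a lower one (5.33%). With library size alone the numbers became 2 and 5, beside 268 and 776 of all genes. GSK126 on day 6 called 8 members, 5 higher and 3 lower, which is 26.7% and close to the background of 28.3% (14.3% higher, 14% lower). Its effect differed between the days for 2 members (6.67%, background 10.5%). Of these, 1 had a higher effect on day 6 (background 3.94%) and 1 a lower one (6.52%). The numbers became 0 and 1 with library size alone, beside 379 and 544 of all genes. On day 1 GSK126 called 0 members and 0 of all genes (background 0%) by edgeR's quasi-likelihood test, with 3 members and 755 genes at an unadjusted p under 0.05; DESeq2 called 0 members and 6 genes, and a fit on the day 1 libraries alone called 12 members and 16.2% of all genes. Leaving out 1 library moved several of these numbers, together with the share of all genes called, which follows each in parentheses. For GSK126 on day 6 the number of members called was 13 without the vehicle library of that day (33.8%) and 14 without either of its 50 ng/ml libraries (35.2% and 35.3%), and for BMP2 on day 6 it was 19 without the library with GSK126 and 50 ng/ml (40.4%). For BMP2 on day 1 it was 0 without the vehicle or GSK126 library of day 1 (0.00829% and 0.0166%), 1 without any BMP2 library of day 1 (0.431% to 0.547%), and 11 without any library of day 6 other than those at 10 ng/ml (11.5% to 12.3%). The BMP2 difference stood at 1 without the vehicle or GSK126 library of day 1 (0.871% and 0.987%) and at 9 to 11 without the same 4 libraries of day 6 (15.3% to 20.7%). The GSK126 difference stood at 0 without any library of day 1 (2.82% to 3.3%), 1 without a 10 ng/ml library of day 6 (5.77% and 5.81%) and 9 without a 50 ng/ml one (21.7% and 21.8%). These are bulk RNA samples, in which fewer cells of a kind and less RNA per cell cannot be told apart.

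**Figure D2:**
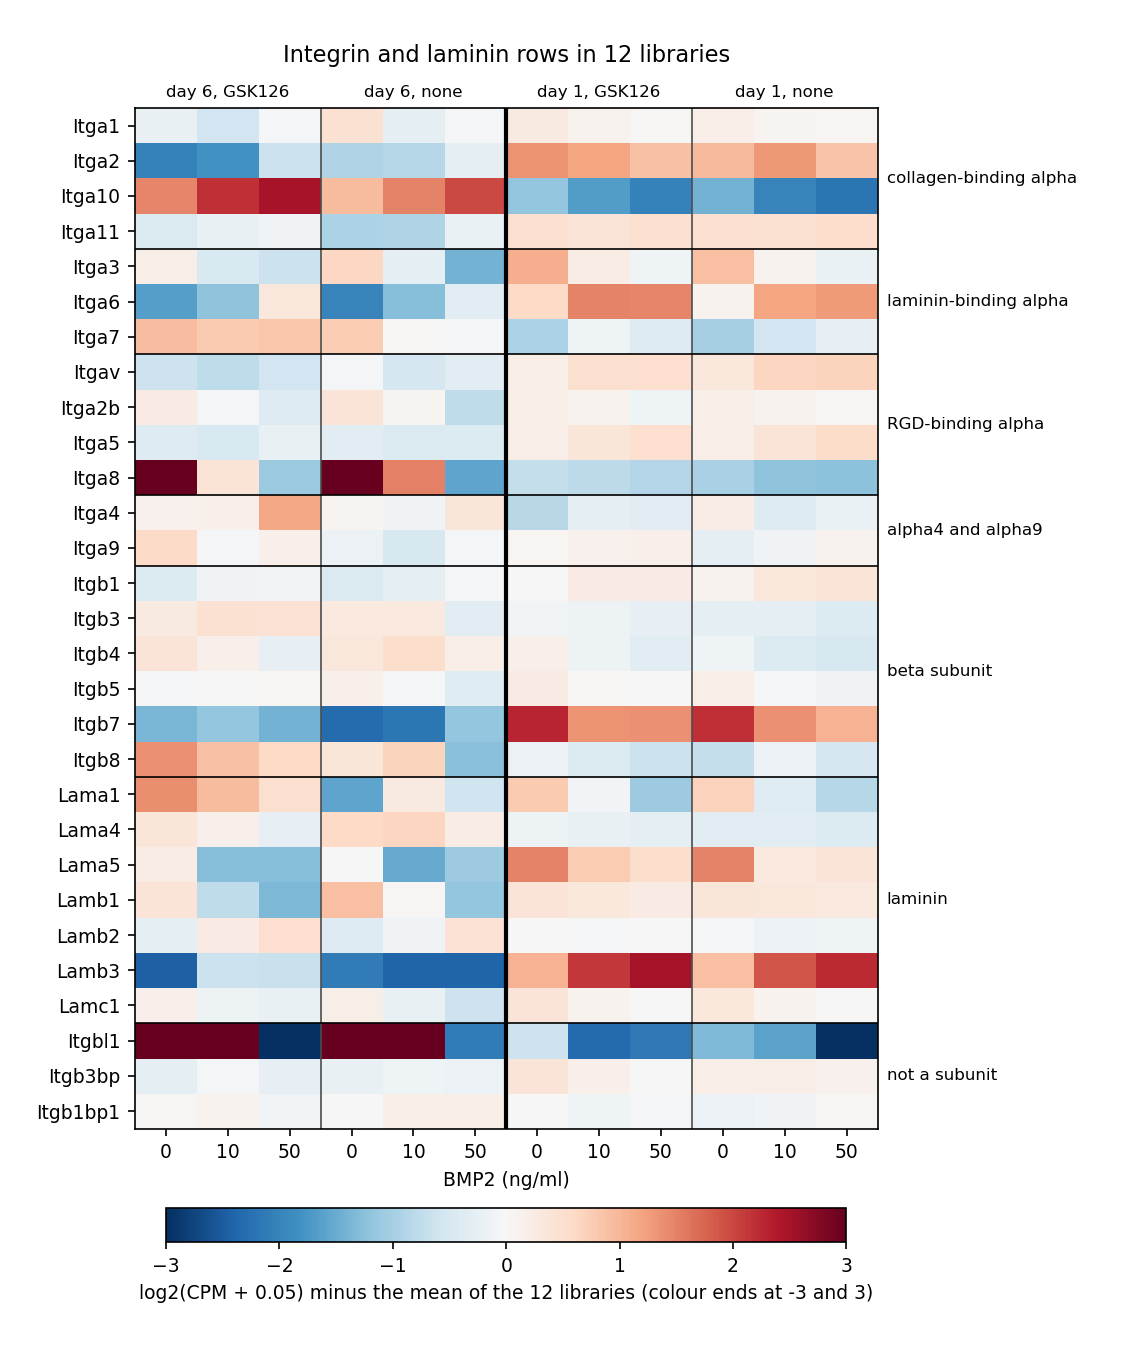
Levels of 29 tested members in the 12 libraries, as log2(CPM + 0.05) minus the member's mean over the 12 libraries, grouped by role; day 6 lies left of the thick line and day 1 right of it. Itga10 stands above its mean in all 6 libraries of day 6 and below it in all 6 of day 1, and Lamb3 and Itgb7 show the opposite order.

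Among the 4 collagen-binding α subunits, Itga11 and Itga10 had the highest median RPKM, 43.3 and 9.31, and they went opposite ways with time. Itga10 ranged from 1.78 to 38.9 RPKM, and its lowest value lay within the Itga1 range of 1.54 to 3.30 RPKM. Itga10 encodes α10, known from cartilage as a collagen type II receptor. On day 6 Itga10 had 134, 223 and 272 CPM with GSK126 and 94.8, 137 and 193 CPM without it. On day 1 Itga10 had 21.6, 15.2 and 11.9 CPM with GSK126 and 18.2, 12.2 and 10.6 CPM without it. Every library of day 6 lay above every library of day 1, and the rise was 3.52 ± 0.04, adjusted p = 3.06e-08, in 6 of 6 treatments. BMP2 moved Itga10 in opposite directions on the 2 days: it was higher by 0.83 ± 0.06, adjusted p = 0.000284 on day 6 and lower on day 1 (-0.68 ± 0.06, adjusted p = 0.00338), in 4 of 4 matched comparisons each. The difference between those effects was 1.51 ± 0.09, adjusted p = 0.0012. At each BMP2 dose of day 6 the library with GSK126 also lay above the one without, by 0.56 ± 0.06, adjusted p = 0.000759. As a share of all α subunit RPKM, Itga10 made up 18.1%, 29.2% and 30.8% with GSK126 and 12.4%, 21.4% and 25.1% without it on day 6, against 0.978% to 2.19% on day 1. The fall on day 1 was lost without the vehicle or the GSK126 library of that day (adjusted p up to 0.142); the other Itga10 calls were kept with each library left out.

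Itga11, the α11 subunit that binds collagen type I and is typical of mesenchymal cells, had 174, 199.8 and 217 CPM with GSK126 and 121, 125 and 205 CPM without it on day 6. On day 1 Itga11 had 325, 308 and 328 CPM with GSK126 and 326, 321 and 338 CPM without it. All libraries of day 6 lay below all of day 1 (-0.93 ± 0.07, adjusted p = 2.19e-05). On day 6 it was higher with GSK126 at each dose (0.43 ± 0.10, adjusted p = 0.0225), a call lost without any 1 of the 6 libraries of day 1, without either library at 10 ng/ml or the GSK126 library of day 6, and in a fit on day 6 alone (adjusted p up to 0.116). Its BMP2 value on day 6, 0.34 ± 0.11, adjusted p = 0.058, did not pass, though 4 of 19 alternative fits called it. Itga2, the α2 collagen receptor subunit, was scarce on day 6, with 5 to 16 read pairs in a library against 50 to 90 on day 1. Its levels were 0.111, 0.139 and 0.376 CPM with GSK126 and 0.302, 0.315 and 0.492 CPM without it on day 6. They were 1.64, 1.46 and 1.16 CPM with GSK126 and 1.25, 1.57 and 1.16 CPM without it on day 1, above every library of day 6 (-2.38 ± 0.17, adjusted p = 1.58e-05). Itga1, the α1 subunit, which prefers basement membrane collagen, had 15.6, 12.2 and 17.4 CPM with GSK126 and 25.01, 14.9 and 17.7 CPM without it on day 6. The day 1 libraries had 22.1, 19.7 and 18.8 CPM with GSK126 and 20.8, 19.3 and 18.9 CPM without it for Itga1. The groups overlapped, and the fall of -0.24 ± 0.08 on the log2 scale (adjusted p = 0.0245) was lost without any 1 library of day 1 or either 10 ng/ml library of day 6 and with treatment terms common to both days (adjusted p up to 0.0792). The row of Itga1 overlaps that of Pelo, and the strand setting of the authors' counting is not given in the sources used here.

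The laminin-binding subunits Itga3 and Itga6, which with β1 form the α3β1 and α6β1 receptors, changed in opposite directions with BMP2. Itga6 had 4.23, 5.77 and 17.1 CPM with GSK126 and 3.32, 5.48 and 10.7 CPM without it on day 6. On day 1 Itga6 had 20.5, 37.7 and 37.0 CPM with GSK126 and 14.5, 30.8 and 32.6 CPM without it. Both BMP2 doses lay above 0 ng/ml in each of the 4 series, by 1.23 ± 0.13, adjusted p = 0.00101 on day 6 and 0.99 ± 0.12, adjusted p = 0.011 on day 1. With time it fell (-2.05 ± 0.08, adjusted p = 9.76e-07), in 6 of 6 treatments. Itga3 had 60.01, 38.6 and 33.8 CPM with GSK126 and 82.0, 43.3 and 19.8 CPM without it on day 6. On day 1 Itga3 had 112, 62.0 and 48.6 CPM with GSK126 and 98.9, 56.9 and 45.8 CPM without it. Its level was lower at each BMP2 dose than at 0 ng/ml in all 4 series. The fall passed on day 6 (-1.10 ± 0.21, adjusted p = 0.00865) and stood at -0.99 ± 0.20, adjusted p = 0.0506 on day 1, where it did not pass. The day 1 fall was called in 8 of 19 alternative fits, among them the fit on day 1 alone. Itga3 was also lower on day 6 than on day 1 at each matched treatment (-0.64 ± 0.14, adjusted p = 0.00441). GSK126 lay on different sides at different doses of day 6: Itga3 was lower with it at 0 and 10 ng/ml and higher at 50 ng/ml, so that the value over 3 doses was 0.04 ± 0.20. Without either library at 50 ng/ml it was -0.31 (adjusted p = 0.0187 and 0.0183).

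The Itga6 call on day 1 was lost without any 1 library of that day (adjusted p up to 0.273), and the Itga3 call on day 6 without the vehicle library of day 6 or in a fit on day 6 alone (adjusted p up to 0.0634). Itga7, the α7 subunit of muscle, was near the filter. Itga7 had 1.65, 1.49 and 1.55 CPM with GSK126 and 1.46, 0.865 and 0.8 CPM without it on day 6. It had 0.415, 0.762 and 0.631 CPM with GSK126 and 0.398, 0.546 and 0.697 CPM without it on day 1, below every library of day 6 (1.17 ± 0.16, adjusted p = 0.000384). Its row overlaps that of Mettl7b by 8 bases. Among muscle markers 1 of 3 could be tested, Des, which rose on day 6 by 1.31 ± 0.07, adjusted p = 2.68e-06; the summed level of the 3 was 2.93 to 10.8 CPM on day 6 and 1.87 to 2.64 CPM on day 1, and its part in the Itga7 result was not tested.

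**Figure D3:**
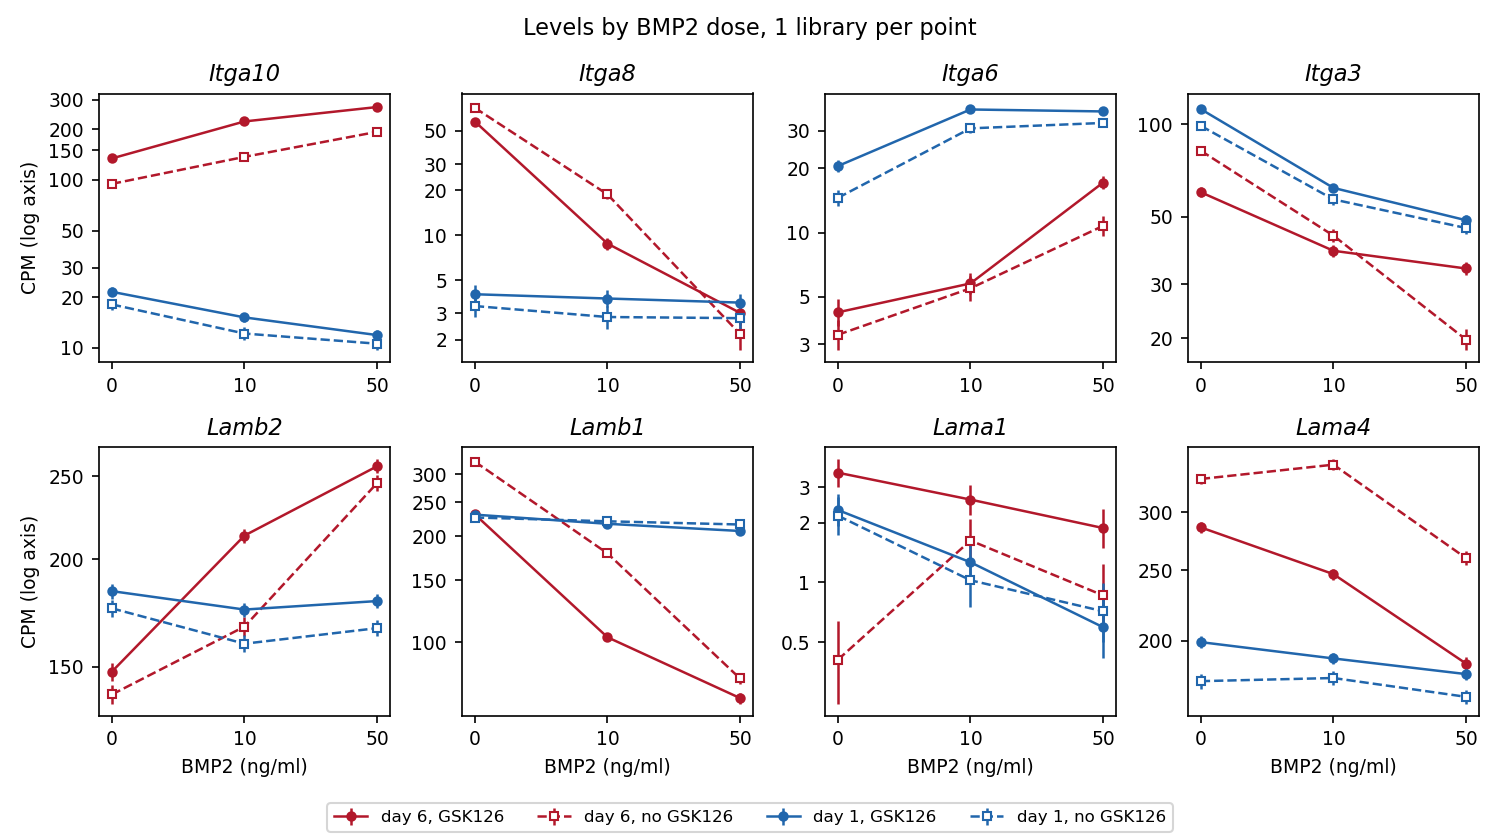
CPM on a log axis by BMP2 dose for 8 members, with 1 library per point and 95% Poisson intervals of the read pairs as bars; red is day 6, blue day 1, filled circles GSK126 and open squares none. On day 6 Itga10, Itga6 and Lamb2 climb with dose while Itga8, Itga3 and Lamb1 descend, and on day 1 Lamb1 stays between 207 and 230.4 CPM.

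Of the RGD-binding subunits, Itga8 had the steepest BMP2 dose response. The α8 subunit pairs with β1 and binds nephronectin and osteopontin. On day 6 Itga8 had 57.7, 8.80 and 3.03 CPM with GSK126 and 71.2, 18.8 and 2.19 CPM without it. On day 1 it had 4.03, 3.78 and 3.55 CPM with GSK126 and 3.36, 2.84 and 2.79 CPM without it. The high values were the 4 libraries of day 6 at 0 or 10 ng/ml; at 50 ng/ml the libraries of day 6 fell within or below the range of day 1. BMP2 lowered it on day 6 (-3.43 ± 0.23, adjusted p = 0.000202; 4 of 4 comparisons), while the day 1 value was -0.20 ± 0.26 and did not pass, and the effects differed by -3.23 ± 0.36, adjusted p = 0.00399. The rise with time (1.97 ± 0.18, adjusted p = 4.12e-05) held in 4 of 6 treatments, not at 50 ng/ml. The difference between days was lost without the vehicle or the GSK126 library of day 1 (adjusted p up to 0.0607). The row of Itga8 overlaps a predicted gene, E030013I19Rik, by 675 bases.

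Itgav encodes αv, the subunit of vitronectin receptors. On day 6 Itgav had 208, 188 and 215 CPM with GSK126 and 308, 226 and 250.1 CPM without it. On day 1 Itgav had 361, 443 and 453 CPM with GSK126 and 404, 501 and 508 CPM without it, above every library of day 6 (-0.94 ± 0.05, adjusted p = 3.66e-06). On day 6 it was lower with GSK126 at each dose (-0.35 ± 0.07, adjusted p = 0.0121), and a fit on day 6 alone did not call it (adjusted p up to 0.103). BMP2 values of -0.21 ± 0.07 on day 6 and 0.32 ± 0.08 on day 1 did not pass singly, though 3 and 6 of 19 alternative fits called them. The difference between these values did pass (-0.53 ± 0.11, adjusted p = 0.0275). That call was lost without any 1 library of day 1 or either 10 ng/ml library of day 6 (adjusted p up to 0.19). Itga5, the fibronectin receptor subunit, had 109, 104 and 122 CPM with GSK126 and 114, 105 and 107 CPM without it on day 6. On day 1 Itga5 had 164, 183 and 202 CPM with GSK126 and 164, 184 and 209 CPM without it, again with no overlap between days (-0.74 ± 0.04, adjusted p = 3.41e-06). Itga2b encodes the αIIb subunit of platelets. Itga2b had 3.65, 2.91 and 2.30 CPM with GSK126 and 4.03, 3.25 and 1.79 CPM without it on day 6. It had 3.42, 3.31 and 2.76 CPM with GSK126 and 3.46, 3.28 and 3.15 CPM without it on day 1. It was lower with BMP2 on day 6 (-0.61 ± 0.14, adjusted p = 0.0176), a call lost without the vehicle library or the library with GSK126 and 10 ng/ml BMP2 of that day and in a fit on day 6 alone (adjusted p up to 0.117). Of 4 platelet markers only Gp1bb could be tested, with 149 to 503 read pairs; their summed level on day 6 was 4.04 to 13.5 CPM with BMP2 and 4.52 to 6.43 CPM without it, and its part in the result was not tested.

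Itga4 and Itga9, whose α4 and α9 subunits bind VCAM1 and tenascin among other ligands, were low. Itga9 had 21.2, 13.5 and 15.7 CPM with GSK126 and 12.5, 10.1 and 13.6 CPM without it on day 6. On day 1 Itga9 had 14.7, 15.4 and 15.7 CPM with GSK126 and 11.8, 13.1 and 15.3 CPM without it. It was higher with GSK126 at each dose of day 6 (0.46 ± 0.11, adjusted p = 0.0205), a call lost without either of the 10 ng/ml libraries of day 6 and in a fit on day 6 alone (adjusted p up to 0.0959). Itga4 had 1.11, 1.13 and 2.35 CPM with GSK126 and 1.08, 0.944 and 1.32 CPM without it on day 6. It had 0.553, 0.843 and 0.801 CPM with GSK126 and 1.195, 0.764 and 0.877 CPM without it on day 1. Itga4 was higher on day 6 (0.61 ± 0.20, adjusted p = 0.0236) in 5 of 6 treatments; the groups overlapped, and the call was lost with library size alone and in 7 of the 12 fits without 1 library, 3 of them without a day 1 library and 4 without a day 6 library (adjusted p up to 0.108). Its row overlaps that of Cerkl by 624 bases.

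Of the 6 β subunits tested, 5 changed with time (83.3%, near the background of 78%), 3 up and 2 down. Itgb1 had 749, 929.8 and 945 CPM with GSK126 and 734, 824 and 966 CPM without it on day 6. On day 1 Itgb1 had 1012, 1187 and 1179 CPM with GSK126 and 1081, 1271 and 1297 CPM without it, above every library of day 6 (-0.45 ± 0.04, adjusted p = 4.17e-05). It was higher with BMP2 on day 6 (0.30 ± 0.06, adjusted p = 0.0112), a call lost with library size alone as scaling and in a fit on day 6 alone (adjusted p up to 0.124). Itgb3, the β3 partner of αv and αIIb, had 74.7, 85.2 and 83.8 CPM with GSK126 and 75.9, 75.8 and 48.6 CPM without it on day 6. On day 1 Itgb3 had 57.9, 55.4 and 51.6 CPM with GSK126 and 51.2, 50.5 and 46.5 CPM without it. The day 6 library with 50 ng/ml BMP2 alone lay inside the range of day 1 and the other 5 lay above it (0.49 ± 0.10, adjusted p = 0.00238; adjusted p = 0.0501 with library size alone). Itgb7, a β subunit known from lymphocytes, had 0.579, 0.677 and 0.563 CPM with GSK126 and 0.28, 0.315 and 0.677 CPM without it on day 6. On day 1 Itgb7 had 7.91, 4.08 and 4.18 CPM with GSK126 and 7.42, 4.21 and 3.35 CPM without it, all above day 6 (-3.30 ± 0.18, adjusted p = 3.45e-06). Its BMP2 value on day 1, -0.96 ± 0.21, adjusted p = 0.0616, did not pass. That value was called in 9 of 19 alternative fits, among them the fit on day 1 alone.

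Itgb4, the β4 partner of α6 in hemidesmosomes, had 3.004, 2.57 and 1.92 CPM with GSK126 and 2.93, 3.30 and 2.65 CPM without it on day 6. On day 1 Itgb4 had 2.53, 2.06 and 1.81 CPM with GSK126 and 2.09, 1.70 and 1.61 CPM without it. It was higher on day 6 (0.47 ± 0.10, adjusted p = 0.00289), with overlap between the days. The row of Itgb4 overlaps that of Galk1 by 55 bases. Itgb8, the β8 partner of αv, had 1.96, 1.37 and 1.13 CPM with GSK126 and 0.948, 1.18 and 0.277 CPM without it on day 6. It had 0.632, 0.535 and 0.443 CPM with GSK126 and 0.423, 0.633 and 0.498 CPM without it on day 1, and was higher on day 6 (0.98 ± 0.24, adjusted p = 0.00761) in 5 of 6 treatments, the exception being 50 ng/ml BMP2 alone. Itgb5 was not called in any comparison of the main fit, though some alternative fits called it. It had 326, 335 and 349 CPM with GSK126 and 373, 321 and 259 CPM without it on day 6. On day 1 Itgb5 had 399, 342 and 332 CPM with GSK126 and 377, 322 and 310.2 CPM without it. Leukocyte markers stood beside Itgb7 at 1 testable gene of 7, Csf1r, which fell on day 6 by 0.41 on the log2 scale (adjusted p = 0.0432); their summed level was 1.02 to 2.74 CPM on day 6 and 1.62 to 2.37 CPM on day 1, Cd3e had 0 read pairs in all 12 libraries, and the part of these cells in the Itgb7 result was not tested.

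The laminin β chains exchanged places with BMP2 on day 6. Lamb1 and Lamb2 encode the β1 and β2 chains, which take the same place in the trimer. Lamb1 had 231, 103 and 69.3 CPM with GSK126 and 326, 179 and 78.8 CPM without it on day 6. On day 1 Lamb1 had 230.4, 217 and 207 CPM with GSK126 and 226, 221 and 216 CPM without it. The 6 libraries of day 1 lay within 207 to 230.4 CPM, while those of day 6 spanned 69.3 to 326 CPM and dropped with each step of BMP2. BMP2 lowered Lamb1 on day 6 (-1.44 ± 0.10, adjusted p = 0.000244); on day 1 the value was -0.09 ± 0.11, and the effects differed by -1.36 ± 0.15, adjusted p = 0.00399. Lamb2 had 148, 213 and 257 CPM with GSK126 and 139, 167 and 245 CPM without it on day 6. On day 1 Lamb2 had 184, 175 and 179 CPM with GSK126 and 175, 159 and 166 CPM without it. BMP2 raised it on day 6 (0.60 ± 0.07, adjusted p = 0.00121; 4 of 4 comparisons), with -0.08 ± 0.07 on day 1 and a difference of 0.68 ± 0.09, adjusted p = 0.008.

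Per length, the ratio of Lamb2 to Lamb1 RPKM was 0.659, 2.12 and 3.80 with GSK126 and 0.439, 0.959 and 3.20 without it on day 6, against 0.743 to 0.887 on day 1. At 50 ng/ml BMP2 on day 6, therefore, Lamb2 was above Lamb1 with and without GSK126, and at 0 ng/ml it was below. GSK126 also lowered Lamb1 on day 6, at each dose (-0.49 ± 0.10, adjusted p = 0.0132), while Lamb2 at 0.17 ± 0.06, adjusted p = 0.0866 did not pass. The Lamb2 value was called in 3 of 19 alternative fits. Both BMP2 differences between days were lost without the vehicle or the GSK126 library of day 1 (adjusted p up to 0.0628 for Lamb1 and 0.0952 for Lamb2), and a fit on day 6 alone did not call Lamb1 for GSK126 (adjusted p up to 0.0918). With time Lamb1 fell (-0.64 ± 0.07, adjusted p = 0.000137), with lower values on day 6 in the 4 treatments that held BMP2; the call was lost with treatment terms common to both days (adjusted p = 0.0509). It was higher on day 6 in vehicle, and GSK126 alone had 230.7 CPM on day 6 against 230.4 CPM on day 1. The small rise of Lamb2 with time (0.13 ± 0.04, adjusted p = 0.0266; 4 of 6 treatments) was lost in 8 of the 12 fits without 1 library, without a filter and with treatment terms common to both days, and took the value -0.0771 with library size alone as scaling (adjusted p up to 0.352).

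Lamb3 encodes β3, the β chain of an epithelial laminin of hemidesmosomes. On day 6 Lamb3 had 0.89, 3.25 and 3.17 CPM with GSK126 and 1.16, 0.917 and 0.923 CPM without it. On day 1 Lamb3 had 10.6, 22.4 and 28.8 CPM with GSK126 and 9.54, 19.1 and 24.3 CPM without it, above all of day 6 (-3.52 ± 0.25, adjusted p = 1.27e-05). Its day 1 levels lay higher at each BMP2 dose than at 0 ng/ml, but the value of 1.22 ± 0.33, adjusted p = 0.106 did not pass. That value was called in 5 of 19 alternative fits, among them the fit on day 1 alone. The 5 epithelial markers were all below the filter, with a summed level of 0.129 to 0.939 CPM on day 6 and 0.218 to 0.438 CPM on day 1, and their part in the Lamb3 result was not tested. Lamc1, the common γ1 chain, had 257, 210.0 and 199.6 CPM with GSK126 and 262, 198 and 149.8 CPM without it on day 6. On day 1 Lamc1 had 303, 250.2 and 229 CPM with GSK126 and 288, 248 and 229 CPM without it. It was lower on day 6 (-0.29 ± 0.06, adjusted p = 0.00262) and, on that day, lower with BMP2 (-0.46 ± 0.09, adjusted p = 0.008), a call lost without the vehicle library of day 6 and in a fit on day 6 alone (adjusted p up to 0.0746).

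Among the α chains Lama4, the α4 chain of mesenchymal and vascular basement membranes, had 286, 247 and 186 CPM with GSK126 and 334, 349 and 259.6 CPM without it on day 6. On day 1 Lama4 had 199, 189 and 179.9 CPM with GSK126 and 176, 178 and 167 CPM without it. The rise with time (0.58 ± 0.04, adjusted p = 1.95e-05) held in 6 of 6 treatments and was smallest where GSK126 and 50 ng/ml BMP2 were combined. On day 6 it was lower with GSK126 at each dose (-0.40 ± 0.06, adjusted p = 0.00461) and with BMP2 in 3 of 4 comparisons (-0.28 ± 0.07, adjusted p = 0.0191). The GSK126 effect differed from that on day 1 (-0.52 ± 0.09, adjusted p = 0.0136), a call lost without any 1 library of day 1 or either 10 ng/ml library of day 6 (adjusted p up to 0.0857); the BMP2 call was lost without the GSK126 library or the one with GSK126 and 10 ng/ml BMP2 of day 6 (adjusted p up to 0.14), and a fit on day 6 alone called neither agent. Lama5, the α5 chain of many adult basement membranes, had 1.67, 0.558 and 0.563 CPM with GSK126 and 1.42, 0.472 and 0.646 CPM without it on day 6. On day 1 Lama5 had 4.13, 2.45 and 2.10 CPM with GSK126 and 4.11, 1.77 and 1.87 CPM without it. It was lower at both BMP2 doses in each of the 4 series, at -1.47 ± 0.17, adjusted p = 0.00144 on day 6 and -1.02 ± 0.15, adjusted p = 0.0195 on day 1, and all libraries of day 6 lay below all of day 1 (-1.72 ± 0.12, adjusted p = 1.07e-05). The call on day 1 was lost without any 1 library of that day (adjusted p up to 0.451). Lama1, the α1 chain of early embryonic basement membranes, had 3.56, 2.61 and 1.88 CPM with GSK126 and 0.409, 1.63 and 0.862 CPM without it on day 6. On day 1 Lama1 had 2.31, 1.26 and 0.597 CPM with GSK126 and 2.17, 1.03 and 0.717 CPM without it. It was higher with GSK126 at each dose of day 6 (1.57 ± 0.44, adjusted p = 0.0357), and this was lost without any 1 library of day 1 and in a fit on day 6 alone (adjusted p up to 0.129).

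**Figure D4:**
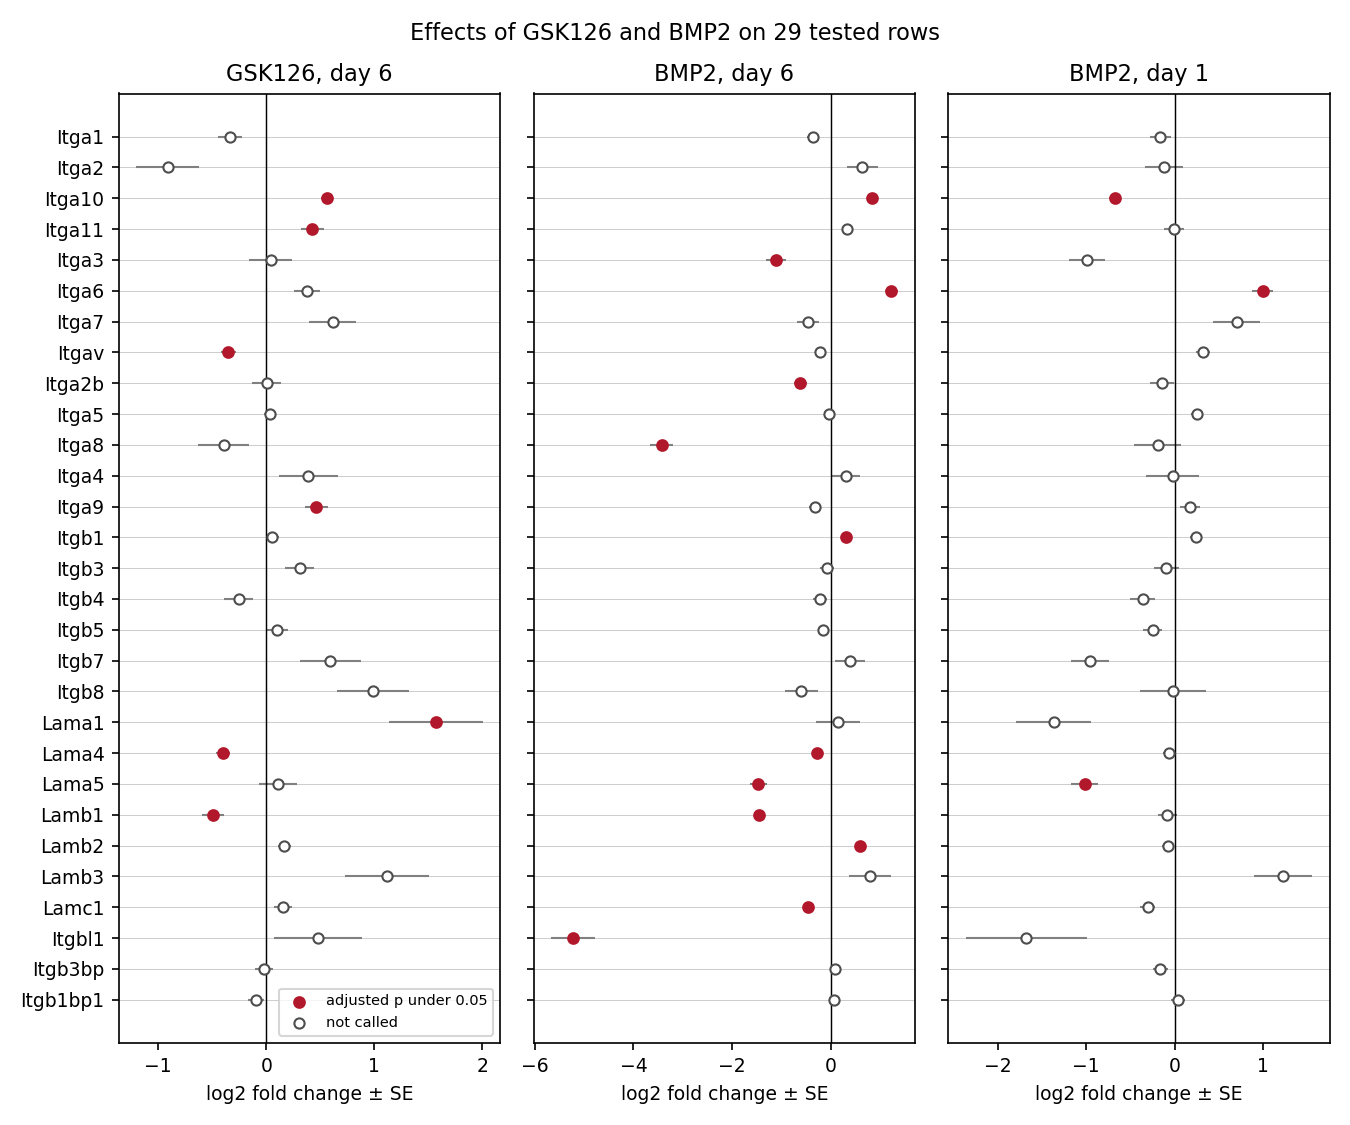
Log2 fold changes of 29 tested members, with standard errors as bars, for GSK126 on day 6, BMP2 on day 6 and BMP2 on day 1; filled points have an adjusted p under 0.05. Filled points number 7, 12 and 3 in the 3 panels, whose horizontal scales differ.

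The last 3 tested rows are named after integrins but encode other proteins. Itgbl1, a secreted protein with β-integrin-like repeats that lacks the membrane part, had 1714, 327 and 1 read pairs with GSK126 and 734, 275 and 4 without it on day 6. On day 1 it had 22, 6 and 7 read pairs with GSK126 and 10, 9 and 2 without it. High levels were seen on day 6 at 0 and 10 ng/ml BMP2; at 50 ng/ml the counts lay near the floor of 3 pairs, so no fold is given. It was called lower with BMP2 on day 6 (adjusted p = 0.000447) and higher on day 6 than on day 1 (adjusted p = 0.00229; 5 of 6 treatments). Without the day 6 library with 50 ng/ml BMP2 the call for time was lost (adjusted p = 0.0944). Itgb3bp, a centromere protein also called CENP-R, had 5.83, 6.69 and 5.89 CPM with GSK126 and 6.03, 6.42 and 6.22 CPM without it on day 6. On day 1 Itgb3bp had 9.13, 7.84 and 7.11 CPM with GSK126 and 7.99, 8.06 and 7.63 CPM without it, above every library of day 6 (-0.36 ± 0.06, adjusted p = 0.000895). Itgb1bp1, whose row overlaps that of Asap2 by 366 bases, encodes ICAP1, which binds the β1 tail. It had 18.6, 19.7 and 17.2 CPM with GSK126 and 18.3, 20.5 and 20.5 CPM without it on day 6. On day 1 Itgb1bp1 had 18.1, 16.6 and 17.9 CPM with GSK126 and 16.1, 17.0 and 18.5 CPM without it. Its value for time, 0.14 ± 0.05, adjusted p = 0.0415, was lost in 9 of the 12 fits without 1 library, without a filter, with DESeq2 or its size factors and with treatment terms common to both days, and was -0.0746 with library size alone (adjusted p up to 0.179).

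The 5 members whose BMP2 effect differed between days, Itga10 and Lamb2 upward and Itga8, Lamb1 and Itgav downward, are shown by their promoters. Each runs from 250 bases before to 50 after the RefSeq start site in build GRCm38.p6, 5′ to 3′ on the gene's strand, with each CpG in capitals.
Itga10 (chr3:96645334-96645633, plus strand): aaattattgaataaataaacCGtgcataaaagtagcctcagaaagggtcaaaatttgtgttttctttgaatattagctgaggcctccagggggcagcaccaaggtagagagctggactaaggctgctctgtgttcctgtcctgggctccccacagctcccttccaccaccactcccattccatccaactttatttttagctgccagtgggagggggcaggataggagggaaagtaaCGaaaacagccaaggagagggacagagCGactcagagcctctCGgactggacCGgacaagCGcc
Lamb2 (chr9:108479612-108479911, plus strand): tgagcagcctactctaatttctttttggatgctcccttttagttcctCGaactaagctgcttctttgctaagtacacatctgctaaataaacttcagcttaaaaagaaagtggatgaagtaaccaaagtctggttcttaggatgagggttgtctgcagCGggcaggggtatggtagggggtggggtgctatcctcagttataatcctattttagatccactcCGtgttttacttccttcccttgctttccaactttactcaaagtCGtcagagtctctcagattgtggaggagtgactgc
Itga8 (chr2:12301895-12302194, minus strand): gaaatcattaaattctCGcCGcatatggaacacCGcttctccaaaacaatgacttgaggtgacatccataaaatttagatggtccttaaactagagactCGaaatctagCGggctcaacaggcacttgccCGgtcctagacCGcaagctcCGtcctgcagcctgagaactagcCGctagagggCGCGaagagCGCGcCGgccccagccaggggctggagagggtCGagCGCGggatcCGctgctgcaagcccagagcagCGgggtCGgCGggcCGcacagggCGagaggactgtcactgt
Lamb1 (chr12:31265043-31265342, plus strand): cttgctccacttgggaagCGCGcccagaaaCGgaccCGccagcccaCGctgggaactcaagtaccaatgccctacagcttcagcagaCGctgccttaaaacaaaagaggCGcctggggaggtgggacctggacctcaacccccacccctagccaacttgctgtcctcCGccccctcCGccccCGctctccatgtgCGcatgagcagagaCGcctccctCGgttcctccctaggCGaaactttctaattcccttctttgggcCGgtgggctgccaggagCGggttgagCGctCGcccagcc
Itgav (chr2:83724147-83724446, plus strand): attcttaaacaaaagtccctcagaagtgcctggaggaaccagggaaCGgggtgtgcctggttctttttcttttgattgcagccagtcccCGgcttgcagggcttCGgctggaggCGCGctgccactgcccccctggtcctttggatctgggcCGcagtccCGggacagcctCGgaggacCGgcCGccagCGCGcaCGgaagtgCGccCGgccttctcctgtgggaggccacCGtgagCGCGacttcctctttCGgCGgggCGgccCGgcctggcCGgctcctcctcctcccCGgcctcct

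The promoters of Itga10 and Lamb2, higher with BMP2 on day 6, hold 6 and 4 CpG in these 300 bases. Those of Itga8, Lamb1 and Itgav hold 23, 18 and 24. Over all 32851 promoters of the table the median was 7 and the 10th and 90th percentiles were 1 and 31, so each of the 5 lies inside that span. The other members did not keep that order: Itgb1, called higher with BMP2 on day 6, has 27, and Itga2b and Itgbl1, called lower, have 6 each. The motif GGCGCC, a GC-rich SMAD site, is in 11.9% of all promoters on either strand and occurs once among the 5, in Lamb1. CCGCCC, a GC box, is in 35.7% of all promoters and in Lamb1 and Itgav. TGTGGT, a RUNX site, is in 16.8% of all and in none of the 5 windows, and no motif found overlapped another. Of the 43 members 27 had a promoter in the table.

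Whether GSK126 acted differently with BMP2 than without it was examined on day 6 in a fit with an interaction term. It called 0 of 30 members and 0 of 12056 genes (background 0%) by edgeR's quasi-likelihood test, with 2 members and 1125 genes at an unadjusted p under 0.05; DESeq2 called 1 member and 1.58% of all genes. The 2 members were Lamb3, at 2.19 ± 0.33 (unadjusted p = 0.000353; adjusted p = 0.226), also the 1 that DESeq2 called, and Lama1, at -2.27 ± 0.82 (adjusted p = 0.49). For Lamb3 the libraries of day 6 with both agents had 3.25 and 3.17 CPM, against 0.89 to 1.16 CPM in the other 4. For Lama1 the vehicle library stood lowest, at 0.409 CPM. The interaction fit held the presence of BMP2 but not its dose, so differences between the doses counted in its spread. Its standard error was 1.48 for Itga8 and 0.63 for Lamb1, against 0.24 and 0.10 for GSK126 on day 6 in the main fit. These contrasts are unlike: the main one averages 3 doses, while the interaction leans on 1 GSK126 library and 1 vehicle library. At equal spread this alone would make the standard error of the interaction larger. For Lamb3 it was smaller, 0.33 against 0.39. The 0 calls therefore cannot show that an interaction was absent for any member, whether or not it changed with dose.

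Genes that work with the members were taken from 3 lists. In the adhesion complex list, which holds talins, kindlins and other proteins at the integrin tail, 26 genes were tested and 22 changed with time (84.6%; background 78%), 4 higher (background 40.5%) and 18 lower (background 37.5%), led by the parvin gene Parvb (-2.01 ± 0.06, adjusted p = 3.11e-07), the zyxin gene Zyx (-1.90 ± 0.07, adjusted p = 5.92e-07) and Fhl2 (-1.43 ± 0.04, adjusted p = 2.23e-07). BMP2 on day 6 called 3 higher and 7 lower (38.5%; background 28.7%): Parvb was higher (1.41 ± 0.10, adjusted p = 0.000227), and Fhl2 (-0.95 ± 0.06, adjusted p = 0.000149) and the talin gene Tln2 (-0.72 ± 0.19, adjusted p = 0.0302) lower. On day 1 it called 1 higher and 2 lower (11.5%; background 3.66%), Parvb (0.67 ± 0.09, adjusted p = 0.015), the tensin gene Tns2 (-0.55 ± 0.10, adjusted p = 0.0357) and Kank2 (-0.29 ± 0.05, adjusted p = 0.0245). GSK126 on day 6 called 2 higher and 6 lower (30.8%, near the background of 28.3%), with the tensin gene Tns1 at 0.44 ± 0.12, adjusted p = 0.0359, Tgfb1i1 at -0.41 ± 0.09, adjusted p = 0.0134 and the kindlin gene Fermt2 at -0.38 ± 0.05, adjusted p = 0.00188. The BMP2 effect differed between days for Fhl2 (-0.74 ± 0.09, adjusted p = 0.00421) and Parvb (0.74 ± 0.13, adjusted p = 0.0178), and the GSK126 effect for Fermt2 (-0.32 ± 0.07, adjusted p = 0.0283); these are 7.69% and 3.85% of the list, beside 9.14% and 10.5% of all genes.

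Of 18 tested integrin ligands other than laminins, 15 changed with time, 6 higher and 9 lower (83.3%, near the background of 78%). Bone sialoprotein, Ibsp, an RGD ligand of αv integrins, and nephronectin, Npnt, a ligand of α8, rose by 6.44 ± 0.23, adjusted p = 5.99e-07 and 3.53 ± 0.21, adjusted p = 5.63e-06, and Ctgf fell (-3.62 ± 0.13, adjusted p = 5.96e-07). BMP2 called 15 of the 18 on day 6, 9 higher and 6 lower (83.3%; background 28.7%): Ibsp (2.13 ± 0.31, adjusted p = 0.00336) and tenascin-W, Tnn (1.94 ± 0.36, adjusted p = 0.00834), were higher and fibrillin-1, Fbn1, lower (-2.44 ± 0.34, adjusted p = 0.00289). On day 1 it called 4 higher and 0 lower (22.2%; background 3.66%), led by Ibsp (2.61 ± 0.33, adjusted p = 0.0114), Tnn (2.47 ± 0.36, adjusted p = 0.018) and tenascin-C, Tnc (1.22 ± 0.22, adjusted p = 0.0364). GSK126 on day 6 called 5 higher and 5 lower (55.6%; background 28.3%), with osteopontin, Spp1, at 2.52 ± 0.47, adjusted p = 0.00899, Ibsp at 1.71 ± 0.27, adjusted p = 0.00487 and periostin, Postn, at -1.09 ± 0.13, adjusted p = 0.00145. The effects differed between days for 7 ligands with BMP2 (38.9%; background 9.14%) and 5 with GSK126 (27.8%; background 10.5%); Postn was among them for both, at -1.61 ± 0.19, adjusted p = 0.00462 for BMP2 and -1.12 ± 0.18, adjusted p = 0.0111 for GSK126.

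Among 19 tested basement membrane genes and laminin receptors, 17 changed with time, 7 higher and 10 lower (89.5%; background 78%), with Col15a1 at 3.54 ± 0.05, adjusted p = 4.83e-08 and the netrin gene Ntn4 at -1.52 ± 0.19, adjusted p = 0.000269. BMP2 on day 6 called 6 higher, by 0.21 to 1.14 on the log2 scale, and 6 lower, by -0.31 to -1.92 (63.2%; background 28.7%). The collagen type IV chains Col4a1 (-1.92 ± 0.32, adjusted p = 0.00554) and Col4a2 (-1.70 ± 0.22, adjusted p = 0.00222) and nidogen-2, Nid2 (-1.23 ± 0.15, adjusted p = 0.00167) were the 3 largest changes, all lower. On day 1 it called Col15a1 higher (1.47 ± 0.08, adjusted p = 0.00203) and Nid2 lower (-0.81 ± 0.15, adjusted p = 0.0386), which is 10.5% beside a background of 3.66%. GSK126 on day 6 called 5 higher and 3 lower (42.1%; background 28.3%), with Ntn4 at 1.48 ± 0.29, adjusted p = 0.0113, Npnt at -1.004 ± 0.28, adjusted p = 0.0353 and the matrix protein gene Sparc at 0.58 ± 0.12, adjusted p = 0.0128. BMP2 effects differed between days for 5 of the 19 (26.3%; background 9.14%), led by Col4a2 (-1.52 ± 0.33, adjusted p = 0.0342) and nidogen-1, Nid1 (-1.09 ± 0.10, adjusted p = 0.00232), and GSK126 effects for 2 (10.5%, the same share as among all genes), Ntn1 (-0.36 ± 0.08, adjusted p = 0.0369) and Utrn (0.27 ± 0.07, adjusted p = 0.0494).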

How the data were processed

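RNA of 12 libraries was sequenced, 1 for each combination of day, GSK126 and BMP2 dose, and grouped by the sample titles. The authors deposited 1 table with gene counts, RPKM values and a coding length per gene. The submitters' processing notes name bcl2fastq, TopHat2 2.0.6, HTSeq and build mm10. How HTSeq was set (counting, strand, annotation release) is not given in the sources used here. The deposited counts were raw; since 0 of the 195176 nonzero values were odd, both mates of a pair were probably counted, and a count was halved to give read pairs. The deposited RPKM values, scaled by the authors for length and library total, were used only for levels between genes; the totals they imply are 1.23 to 1.3 times the gene sums. The coding length, another column deposited by the authors, served that check.

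Rows that reached 1 CPM in 2 or more libraries were tested as deposited counts with TMM scaling in edgeR 4.0.16 (R 4.3.3, limma 3.58.1), by the quasi-likelihood test with Benjamini-Hochberg adjustment over all 12056 genes at 0.05. The fit held day, GSK126 within day and each BMP2 dose within day (8 coefficients, leaving 4 residual degrees of freedom). For the interaction, terms were day, GSK126, presence of BMP2 and all their products. All libraries share 1 estimate of spread. Poisson intervals (95%) on read pairs and the floor of 3 pairs cover counting error only. Alternatives were DESeq2 1.42.0, its size factors in edgeR, library size alone, no filter, 5 CPM, halved counts, treatment terms common to both days, separate fits for each day, and leaving out each library. The scripts were tested on simulated counts.

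Members were named individually, except 1 tested gene that enters the counts and is not reported here; from 3 lists of adhesion, ligand and basement membrane genes up to 3 called genes per comparison were named, by largest absolute log2 fold change. Members, lists and tests were chosen with earlier results of these data known. Promoters are from RefSeq on GRCm38.p6, the build also called mm10.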

Additional observations from a re-analysis of the deposited data

Results flagged for a closer look

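Among the tested members reported here, 6 had an effect that differed between the days by a test of the difference itself (effect on day 6 minus effect on day 1, log2, edgeR's quasi-likelihood test). For BMP2 the differences were 1.51 for Itga10, 0.68 for Lamb2, -0.53 for Itgav, -1.36 for Lamb1 and -3.23 for Itga8. For GSK126 the difference was -0.52 for Lama4. Of these 6, Itga10 alone was called in every alternative that was run. The others lost the call when certain libraries of day 1, and for Itgav and Lama4 also some of day 6, were left out. No explanation was tested.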

How the results depend on the processing

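The number of members called for day was 25 of 30 tested, and 21 to 26 with 1 library left out (71.2% to 80% of all genes). Over all alternatives the lowest number was 19, of 21 members tested at 5 CPM (80% of all genes). The highest number was 29, of 43 members tested without a filter (53.5% of all genes). For GSK126 on day 6 it was 8, and 1 in a fit on the libraries of that day, which called 7.9% of all genes (6 to 14 with 1 library left out). For GSK126 on day 1 it was 0, and 12 in a fit on that day, which called 16.2% of all genes (0 to 0). The GSK126 difference between days called 2 (10.5% of all genes), against 5 with DESeq2 (14.3%) and 1 with library size alone (7.66%). With 1 library left out it called 0 to 9. BMP2 on day 6 called 12, and 7 in a fit on that day, with 8.72% of all genes (10 to 19). BMP2 on day 1 called 3 (3.66% of all genes), against 10 with DESeq2 (7.56%) and 5 with halved counts (3.92%). It called 5 of 43 members tested without a filter (2.21%) and 18 in a fit on that day (38.9%). With 1 library left out it called 0 to 11. The BMP2 difference called 5 (1 to 11). The interaction called 0, or 1 with DESeq2 (1.58% of all genes), and 0 with 1 library left out. The vehicle and GSK126 libraries of day 6 could not be left out there. Of 55 called member effects, 27 were kept in every alternative and 28 were lost in at least 1; 77 of the 185 not called were called in at least 1. Counting only effects called in the reported or the alternative fit, signs turned for Lamb2 (-0.0771) and Itgb1bp1 (-0.0746) by day with library size alone, for Itga3 with GSK126 on day 6 without either 50 ng/ml library (-0.31 each, against 0.04; -0.31 to 0.29 over all libraries left out), and for the BMP2 difference of Lamb3 without the vehicle library of day 6 (0.63, against -0.42; -1.56 to 0.63). With library size alone the median log2 fold change over all genes was -0.179 for day, -0.147 for BMP2 on day 6, -0.104 for the BMP2 difference and 0.11 for the interaction. In the main fit these medians were 0.03, -0.002, -0.004 and 0. Changes in the report are relative to TMM scaling. The causes were not tested. Libraries of both days were matched by treatment in the fit with treatment terms common to both days, which called 21 members by day. No paired analysis was possible by replicate number, because the labels give none. Levels under about 1 CPM rest on few read pairs, which limits their precision.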
